A study of Homo sapiens with 16 samples.

Results

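All 10 tumours with SHP2 knockdown were compared with the 2 control tumours in which the adaptor gene IRS4 was low, so that 12 of the 16 tumours of the series entered the comparison. The tumours were grown from BT474, a human breast cancer line with amplified ERBB2 (HER2), in immunodeficient mice, injected into the fat pad of a mammary gland. The cells carried a doxycycline-inducible lentiviral vector for a control microRNA (CTRL miR), for SHP2 miR1 or for SHP2 miR2, the last 2 being hairpins against SHP2. Doxycycline at 2 g per L was given to every group, controls included, from the time tumours had formed until dissection at day 30. Total RNA of whole tumours was measured on a human gene array, with 1 array per tumour. The comparison held 7 tumours of SHP2 miR1, 3 of SHP2 miR2 and 2 of CTRL miR. The labels do not tie tumours to mice and do not say whether a transduced line was 1 clone, so the p-values measure the spread between these tumours. The number of arrays, in particular 2 controls and 3 miR2 tumours, limits the precision.

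The controls were chosen by a measured value. IRS4, which encodes an adaptor of the insulin receptor, had a log2 signal of 3.16 in control tumour 2 and 3.77 in control tumour 5, below the threshold of 4, and the nearest control outside it had 7.14. In the 10 knockdown tumours IRS4 ran from 2.97 to 3.91. IRS4 was not tested, and the p-values of all other genes take this choice of controls as given. The 4 controls left out, tumours 1, 3, 4 and 6, also stood apart in HOXD10, a homeobox gene, at 7.31 to 7.83 against 4.17 and 3.43 in control tumours 2 and 5. LIN28B, which encodes a repressor of let-7 microRNAs, had 3.98 to 4.90 in those 4 tumours against 2.24 and 2.31. The mean log2 signal of 15 markers of the kidney line HEK293 was 6.34 to 6.71 in the 4 tumours left out and 4.68 to 4.70 in the 2 kept. The knockdown tumours had 4.65 to 4.83. Markers of that line include IRS4 itself, with HOXD10 and LIN28B, so part of this gap was fixed by the choice of controls. A mean over 15 genes that mark BT474 and luminal breast cells was 9.49 to 9.82 in the 12 tumours compared. In the average of both hairpins limma called 0 of the 15 (3 at an unadjusted p below 0.05). With miR1 alone limma called 0 (1 at an unadjusted p below 0.05). With miR2 alone 2 rose and 1 fell (6 at an unadjusted p below 0.05).

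Values are log2 signals of 18377 genes, and a change is a log2 difference from the mean of control tumours 2 and 5. A gene was called when its limma p-value, adjusted over all 18377 genes after Benjamini-Hochberg, was below 0.05. "Both hairpins" means the average of the miR1 and the miR2 change, each with equal weight. The arrays also fell into a pair of sets by the mean of 5 noncoding RNAs, at 8.19 to 8.39 in set A (7 arrays) and 6.81 to 7.21 in set B (9 arrays). Control tumour 2 lay in set A with miR1 tumours 1 to 4, and control tumour 5 lay in set B with the other 6 knockdown tumours, which include all 3 of miR2. Each set thus held 1 of the 2 controls, so within its set miR2 can be compared with control tumour 5 and with miR1 tumours 5 to 7 alone. Among the 12 arrays compared, miR2 tumours 1 and 3 had the narrowest spread over genes, an SD of 1.89 each against 1.95 to 2.07 in the other 10, and raised lower quartiles of 4.01 and 4.04 against 3.72 to 3.94. A narrower spread goes with higher values of dim genes and lower values of bright ones, and its part in the miR2 results was not tested beyond the values given below. With miR2 tumour 2 as the only miR2 tumour 324 genes were called for miR2, where 803 were with all 3.

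SHP2, the product of PTPN11, is a tyrosine phosphatase that binds activated receptor tyrosine kinases and their adaptors and passes their signal on to RAS and the ERK kinases. Active ERK raises the genes of its own feedback inhibitors, such as the DUSP phosphatases and the Sprouty proteins, and those of the PEA3 family of ETS transcription factors. In breast cells of the apocrine type the androgen receptor drives secretory genes, among them the kallikreins KLK2 and KLK3, and the related glucocorticoid receptor binds a similar DNA element, an inverted repeat with a spacer.

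KLK2 and KLK3 are both among the 12 largest falls described below, taken over called genes whose knockdown tumours do not overlap either control and whose sign is the same with each hairpin. They are neighbours with no protein-coding gene between them in the RefSeq order. Their promoters are shown because both genes moved together and share an element of that kind. The 250 bases before each start (RefSeq, GRCh38.p14, both on the plus strand) are given in lower case, with the matching letters in capitals. The KLK2 stretch is chr19:50873189-50873438 and the KLK3 stretch is chr19:50854665-50854914.
KLK2: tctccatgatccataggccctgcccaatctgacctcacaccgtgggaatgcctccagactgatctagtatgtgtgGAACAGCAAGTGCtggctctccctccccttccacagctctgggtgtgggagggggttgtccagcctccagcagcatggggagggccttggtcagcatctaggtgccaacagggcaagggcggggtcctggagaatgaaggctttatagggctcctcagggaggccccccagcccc
KLK3: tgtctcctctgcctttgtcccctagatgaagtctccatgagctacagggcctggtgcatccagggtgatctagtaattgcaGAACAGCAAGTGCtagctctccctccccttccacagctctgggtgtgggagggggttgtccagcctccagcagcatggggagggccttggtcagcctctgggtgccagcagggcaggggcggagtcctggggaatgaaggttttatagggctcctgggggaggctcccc
The pattern searched, on both strands, was GNACA and GTNC with any 4 letters between them. Its match has the same 13 letters in both genes, at 175 to 163 bases before the start in KLK2 and at 169 to 157 in KLK3. Aligned, the stretches had 207 identical letters in 259 columns (79.9%). The pattern occurred in 769 of 35116 promoters of that table (2.19%), counted over windows of 300 bases that run 50 past the start. Of the 8 androgen-responsive and apocrine genes called below, 5 had a promoter in the table, and 2 of these, KLK2 and KLK3, held the pattern. The shorter AGAACA, whose letters overlap the longer pattern in KLK3, was in 14.8% of promoters and in 1 of the 5. A match is a description of letters and not of binding. The coding parts of the genes are similar too, and whether the array's probes separate KLK2 from KLK3 was not tested.

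PTPN11, the targeted gene, was lower in each of the 10 knockdown tumours than in either control. Its log2 signal was 8.23 and 8.28 in the controls, 6.59 at the lowest, 6.97 at the median and 7.18 at the highest with miR1, and 6.52, 6.53 and 6.34 with miR2. The groups did not overlap, and the miR2 tumours lay below all miR1 tumours. The change was -1.56 ± 0.13 (SE, limma adjusted p = 7.45e-06) with both hairpins, which leaves 33.8% of the control signal (95% interval 27.9% to 41.1%). It was -1.33 ± 0.14 (SE, limma adjusted p = 6.03e-05) with miR1 and -1.79 ± 0.15 (SE, adjusted p = 1.26e-06) with miR2. PTPN11 was 0.46 higher with miR1 than with miR2 (limma adjusted p = 0.00885, 95% interval 0.22 to 0.71). An exact permutation test of the 10 against the 2 tumours gave a two-sided p of 0.0303, the smallest that its 66 permutations allow. Within sets the change was -1.36 with miR1 in set A (limma adjusted p = 0.0920), -1.28 with miR1 in set B (adjusted p = 0.0265) and -1.82 with miR2 in set B (adjusted p = 9.89e-05).

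With both hairpins, 138 genes were called (0.751% of those tested), 88 lower (0.479%) and 50 higher (0.272%). At an unadjusted p below 0.05 there were 1350. The count rested on the controls. Without control tumour 2 it was 29, and without control tumour 5 it was 52. With miR1 alone 25 genes were called (0.136%), 19 lower (0.103%) and 6 higher (0.0326%), and with miR2 alone 803 (4.37%), 547 lower (2.98%) and 256 higher (1.39%). The miR1 count was 8 without control tumour 2, 5 without control tumour 5, 15 without miR1 tumour 2, 16 without miR1 tumour 3 or without miR1 tumour 6, and 38 without miR2 tumour 2. The miR2 count was 194 without control tumour 2, 499 without miR2 tumour 1, 1654 without miR2 tumour 2 and 452 without miR2 tumour 3. After quantile normalization the miR2 calls were 347 higher and 442 lower, against the 256 and 547 of the values as deposited. A gene that missed the threshold with miR1 is not shown to be equal there to the controls. The shares over all genes are the background of the list counts below. At 0.136% with miR1, a list with 0 called there is near the background.

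Most of the 138 genes carried a larger change with miR2. Of them 135 were also called with miR2 alone and 17 with miR1 alone, and 116 differed between the hairpins, where 5056 of all genes did (27.5%). The miR2 value was the lower in 80 of the 88 that fell with both, and the difference was called in 70 of them. It was the higher in 47 of the 50 that rose, and the difference was called in 43 of these. The sign was the same with each hairpin in 118 of the 138. The 10 knockdown tumours lay on 1 side of both controls for 74 of the 138, 46 below and 28 above. Of all genes 404 did so (2.20%), 251 below (1.37%) and 153 above (0.833%). Calls in the average and in each hairpin alone were shared by 15 genes. The 14 that fell were COL5A2, CPS1, CYP4F8, EMP1, F3, KLK2, KLK3, MUC2, MYBPC1, PTPN11, RGS2, SCGB2A2, SGK1 and TUSC3, and the 1 that rose was ERBB4.

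**Figure D1:**
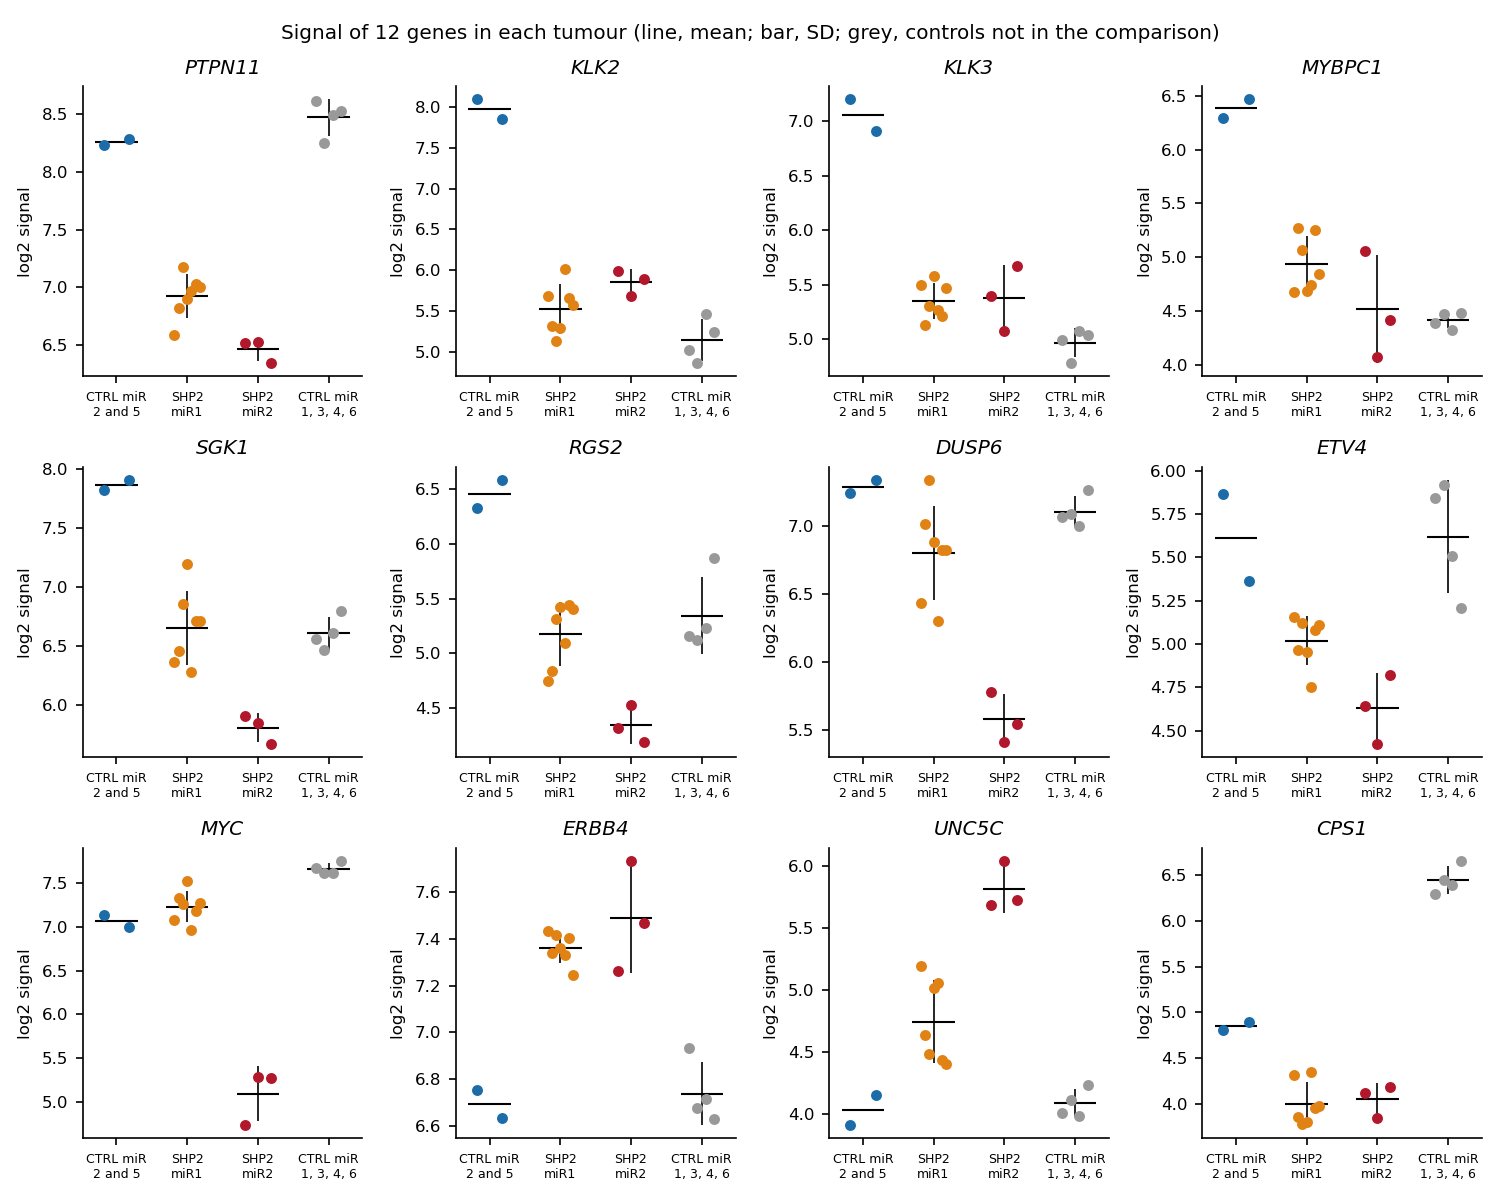
Log2 signal of 12 genes in each tumour, by group (x axis), with the group mean as a line and the SD as a bar for groups of 3 or more. Grey points are control tumours 1, 3, 4 and 6, which are not in the comparison. For KLK2 they lie at 4.86 to 5.46 and overlap the knockdown tumours, and for PTPN11 they lie above all knockdown tumours.

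The output genes of ERK were lower in part. Of 21 members of that list, 3 fell with both hairpins (DUSP6, SPRY4 and ETV4) and none rose. The median change of the 21 was -0.21, against -0.012 over all genes. With miR1 alone limma called 0 of the 21 (7 at an unadjusted p below 0.05), at a median of -0.18, and with miR2 alone 7 fell, at a median of -0.27. After quantile normalization 6 fell and 1 rose with miR2, at a median of -0.27. With miR2 tumours 1 and 3 left out the miR2 median was also -0.27. Of 12 genes for RAS, RAF, MEK and ERK limma called 0 with both hairpins, also 0 at an unadjusted p below 0.05. Of 23 genes for SHP2 and its adaptors PTPN11 itself was the only call with both hairpins and with miR1 alone. With miR2 alone 3 of the 23 fell, PTPN11 among them, and none rose.

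DUSP6, the phosphatase that inactivates ERK, had 7.24 and 7.33 in the controls, 6.30 at the lowest, 6.82 at the median and 7.33 at the highest with miR1, and 5.78, 5.42 and 5.55 with miR2. All 3 miR2 tumours lay below every miR1 tumour, and 9 of the 10 knockdown tumours lay below both controls. The change was -1.10 ± 0.19 (SE, limma adjusted p = 0.00694) with both hairpins. It was -1.71 with miR2 (limma adjusted p = 0.000118) and -0.49 with miR1 (adjusted p = 0.724), and the hairpins differed by 1.22 (adjusted p = 9.41e-05). SPRY4, a Sprouty inhibitor of the pathway, changed by -0.76 with both hairpins (limma adjusted p = 0.0313), by -1.08 with miR2 (adjusted p = 0.00215) and by -0.44 with miR1 (adjusted p = 0.688). Its controls had 6.30 and 5.99, and 9 of 10 knockdown tumours were below both. With hairpins weighted by number of tumours DUSP6 changed by -0.85 (limma adjusted p = 0.0798) and SPRY4 by -0.63 (adjusted p = 0.164). ETV4 stayed called with that weighting (-0.71, limma adjusted p = 0.0401).

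ETV4, a PEA3 family factor, was 5.86 and 5.36 in the controls, 4.75 at the lowest, 5.08 at the median and 5.15 at the highest with miR1, and 4.64, 4.42 and 4.82 with miR2. All 10 knockdown tumours were below both controls, and control tumour 5 was nearer to them than control tumour 2. The change was -0.79 ± 0.15 (SE, limma adjusted p = 0.00951). Its relative ETV5 changed by -0.63 ± 0.16 (SE, limma adjusted p = 0.122) and was not called. Each of the 3 called genes depended on single controls. Without control tumour 2 the limma adjusted p was 0.111 for DUSP6, 0.696 for SPRY4 and 0.618 for ETV4, and without control tumour 5 it was 0.150, 0.102 and 0.0120. Of the 3 called ERK genes 2 had a promoter in the table, and neither held CCGGAA, the core letters of an ETS site, which 17.2% of promoters held.

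ERBB4, a receptor of the HER family that binds neuregulins, was the gene that rose with each hairpin. Its log2 signal was 6.75 and 6.63 in the controls, 7.25 at the lowest, 7.36 at the median and 7.43 at the highest with miR1, and 7.26, 7.73 and 7.47 with miR2. No knockdown tumour overlapped the controls. The rise was 0.73 ± 0.12 (SE, limma adjusted p = 0.00398) with both hairpins, or 1.66-fold. The hairpins differed by -0.13 (limma adjusted p = 0.368), with a 95% interval from -0.35 to 0.10. Without control tumour 2 the rise was 0.79 (limma adjusted p = 0.0629) and without control tumour 5 it was 0.67 (adjusted p = 0.149). The other 13 of the 14 ERBB receptors and ligands measured were not called, and the median of the 14 was 0.0024.

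A part of the androgen-responsive and apocrine genes fell, among them KLK2. Of 18 measured, 8 fell with both hairpins (KLK2, KLK3, MUCL1, SCGB1D2, ZBTB16, ALOX15B, CLDN8 and AZGP1) and none rose, with a median change of -0.47 against -0.012 over all genes. With miR1 alone 3 fell, at a median of -0.31. With miR2 alone 8 fell and 1 rose, at a median of -0.45. The mean level of the 18 was 6.37 to 6.50 in control tumours 2 and 5, 5.82 to 6.06 with miR1, 5.64 to 5.78 with miR2, and 5.59 to 5.62 in the 4 controls left out.

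KLK2, a secreted serine protease, had 8.10 and 7.85 in the controls, 5.13 at the lowest, 5.57 at the median and 6.02 at the highest with miR1, and 5.99, 5.68 and 5.89 with miR2. Every knockdown tumour lay far below both controls, and the hairpins overlapped each other. The change was -2.29 ± 0.18 (SE, limma adjusted p = 3.44e-06), which leaves 20.5% of the control signal (95% interval 15.8% to 26.6%). It was -2.45 with miR1 and -2.12 with miR2, and the hairpins differed by -0.33 (limma adjusted p = 0.113, unadjusted 95% interval -0.66 to -0.0040). Within sets KLK2 changed by -2.74 with miR1 in set A (limma adjusted p = 0.00188), by -2.10 with miR1 in set B (adjusted p = 0.00177) and by -2.0 with miR2 in set B (adjusted p = 0.000191).

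The controls left out were as low in KLK2 as the knockdown tumours, at 4.86 to 5.46. Against all 6 controls the change was -0.40 (limma adjusted p = 0.506). KLK3, the prostate-specific antigen, showed the same arrangement. It had 7.21 and 6.91 in control tumours 2 and 5, a range of 5.13 to 5.58 with miR1, and 5.40, 5.07 and 5.67 with miR2. The knockdown tumours were all below these controls, by -1.69 ± 0.15 (SE, limma adjusted p = 1.19e-05). The left-out controls had 4.78 to 5.07, below 9 of the 10 knockdown tumours, and against all 6 controls the change was -0.30 (limma adjusted p = 0.502). The KLK3 difference between hairpins was -0.029, with a 95% interval from -0.31 to 0.25.

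The secretoglobin SCGB2A2 (mammaglobin A), a small secreted protein of breast epithelium, fell in steps. It had 9.54 and 9.56 in the controls, 8.18 at the lowest, 8.24 at the median and 9.05 at the highest with miR1, and 6.27, 6.76 and 6.30 with miR2. The 3 groups did not overlap. The change was -1.14 with miR1 (limma adjusted p = 0.0284) and -3.11 with miR2 (adjusted p = 4.14e-07), and the hairpins differed by 1.96 (adjusted p = 6.39e-07). The controls left out had SCGB2A2 at 8.04 to 8.32, which overlaps the miR1 tumours. Against all 6 controls its change with both hairpins was -1.21 (limma adjusted p = 0.00225). Its neighbour SCGB1D2, another secretoglobin, changed by -1.04 with both hairpins (limma adjusted p = 0.0154) and by -0.19 against all 6 controls (adjusted p = 0.56). MUCL1, a small mucin of breast tissue, changed by -3.16 with miR2 (limma adjusted p = 1.7e-06) and by -0.52 with miR1 (adjusted p = 0.828). Without control tumour 2 the limma adjusted p of both hairpins was 0.105 for SCGB1D2, 0.660 for ZBTB16, 0.696 for ALOX15B and 0.647 for AZGP1. Without control tumour 5 it was 0.294, 0.0350, 0.107 and 0.164, while KLK2, KLK3, MUCL1 and SCGB2A2 stayed called without either.

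The ABC transporters ABCC11 and ABCC12, which are neighbours on chromosome 16, were both among the 12 largest falls. ABCC11, known for its role in apocrine gland secretion, had 8.70 and 8.37 in the controls, 7.49 to 8.20 with miR1, and 6.28, 6.16 and 6.06 with miR2. It changed by -1.54 ± 0.17 (SE, limma adjusted p = 6.11e-05) with both hairpins, and ABCC12 by -1.69 ± 0.22 (SE, adjusted p = 0.000481). Neither was called with miR1 alone (limma adjusted p = 0.164 and 0.151), and both were with miR2. ABCC12 had a limma adjusted p of 0.0506 without control tumour 2. In the 4 controls left out ABCC11 was 6.74 to 7.01, below all miR1 tumours, and against all 6 controls its change was -0.44 (limma adjusted p = 0.229).

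Glucocorticoid-induced genes fell in part. Of 17 measured, 5 fell with both hairpins (SGK1, RGS2, EMP1, PDK4 and ZBTB16) and none rose, with a median of -0.12. With miR1 alone 3 fell, at a median of -0.23, and with miR2 alone 5, at a median of -0.20. ZBTB16 also belongs to the androgen list. Of 20 immediate-early and dissection stress genes, which respond to the handling of tissue, limma called 0 with both hairpins (4 at an unadjusted p below 0.05). Their mean was 6.73 in both controls, 6.47 to 6.63 with miR1 and 6.50 to 6.81 with miR2, and the part of handling in these falls was not tested.

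SGK1, a kinase that promotes sodium uptake, had 7.82 and 7.91 in the controls, 6.28 at the lowest, 6.71 at the median and 7.19 at the highest with miR1, and 5.91, 5.84 and 5.67 with miR2. The 3 groups did not overlap, and the left-out controls, at 6.47 to 6.80, lay within the miR1 range. The change was -1.64 ± 0.18 (SE, limma adjusted p = 6.41e-05) with both hairpins, -1.21 with miR1 and -2.06 with miR2, and the hairpins differed by 0.85 (adjusted p = 0.00107). RGS2, a regulator that shortens G protein signals, changed by -1.69 with both hairpins (limma adjusted p = 3.63e-05). EMP1, a membrane protein of epithelia, changed by -1.55 (limma adjusted p = 3.63e-05). Both were called with each hairpin, and both were lower with miR2, by 0.83 for RGS2 and 1.01 for EMP1 (limma adjusted p = 0.00106 and 8.85e-05). PDK4, an inhibitor of pyruvate dehydrogenase, changed by -1.17 (limma adjusted p = 0.00397), with an adjusted p of 0.106 without control tumour 2 and 0.0743 without control tumour 5. All 10 knockdown tumours lay below both controls for each of these 4 genes.

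The rest of the 12 largest falls were MYBPC1, GULP1 and PNMT. MYBPC1 encodes a myosin-binding protein, and had 6.30 and 6.47 in the controls, 4.67 to 5.27 with miR1, and 5.06, 4.07 and 4.41 with miR2. Its change was -1.66 ± 0.20 (SE, limma adjusted p = 0.000248), and against all 6 controls it was -0.35 (adjusted p = 0.426), the left-out controls being at 4.32 to 4.48. GULP1, an adaptor for the uptake of dying cells, changed by -2.26 with miR2 (limma adjusted p = 9.49e-07) and by -0.35 with miR1 (adjusted p = 0.825). PNMT makes adrenaline from noradrenaline and lies 1 protein-coding gene away from ERBB2. It changed by -1.24 ± 0.18 (SE, limma adjusted p = 0.00105), with an adjusted p of 0.0542 without control tumour 2.

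For these 12 falls as a group, miR1 alone called 8 and miR2 alone called 12, and 9 differed between the hairpins. The controls left out were lower than control tumours 2 and 5 in 11 of the 12, PTPN11 being the exception, with a median difference of -1.32. Over all 88 genes that fell the left-out controls were lower in 68, with a median of -0.42, and over all 18377 genes in 10720, with a median of -0.058. Control tumours 2 and 5 enter both differences, so the counts are a description. All 12 were also chosen for knockdown tumours below both controls, as the 12 rises were for tumours above them. Against all 6 controls 6 of the 12 were not called (KLK2, KLK3, ABCC12, MYBPC1, ABCC11 and PNMT).

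**Figure D2:**
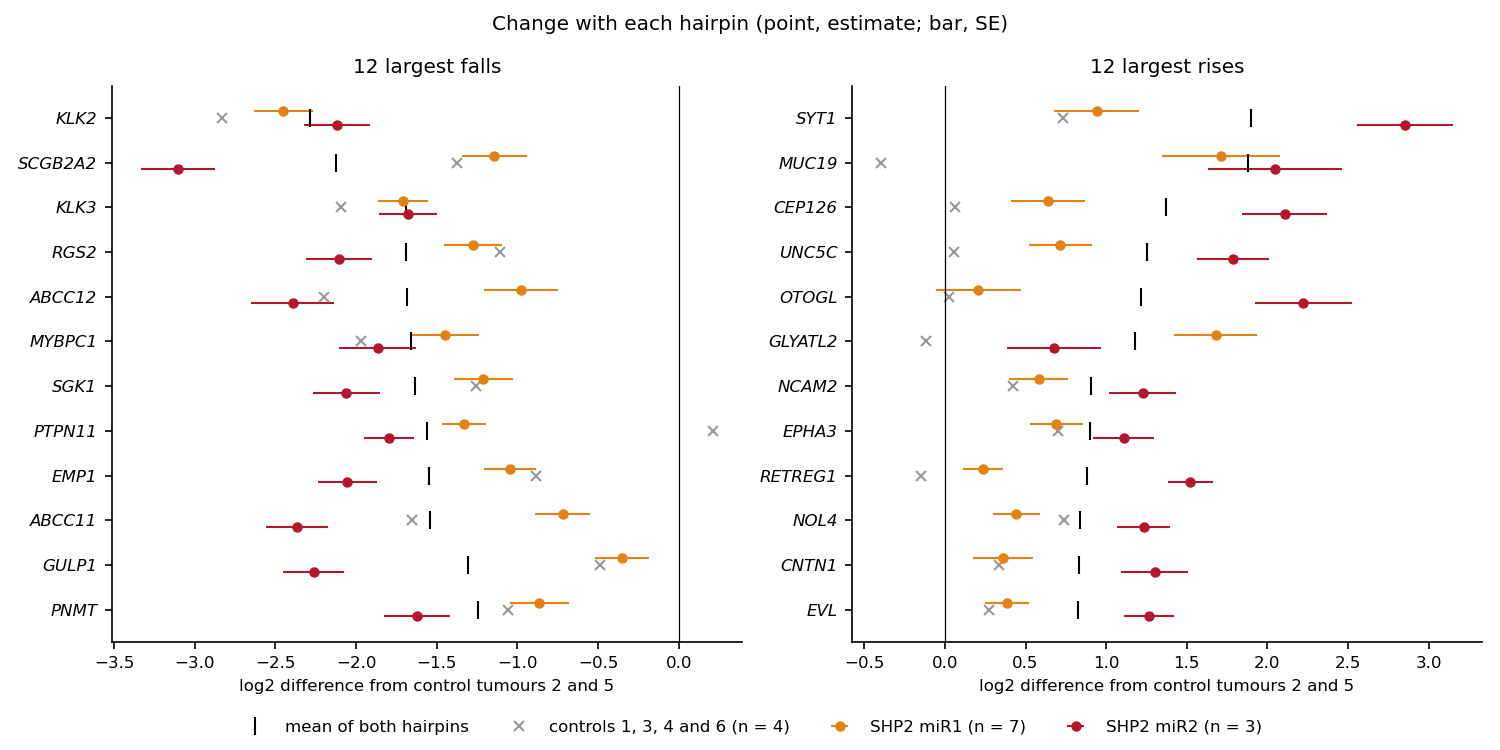
Change of the 12 largest falls (left) and the 12 largest rises (right) with each hairpin as a log2 difference from control tumours 2 and 5, points with bars of 1 SE. Black ticks are the average of both hairpins, and grey crosses the mean of the 4 controls left out. The crosses of 11 of the 12 falls lie below 0, and the miR2 points lie beyond the miR1 points for most genes.

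Mucin and mucin-like genes moved in both directions. Of 20 measured, 2 fell (MUC2 and MUCL1) and 2 rose (MUC19 and OTOGL), with a median of -0.031. MUC2, a gel-forming mucin, had 6.64 and 6.21 in the controls, 5.05 at the lowest, 5.18 at the median and 5.21 at the highest with miR1, and 5.61, 5.44 and 5.64 with miR2. It was lower with miR1 than with miR2, by -0.40 (limma adjusted p = 0.0117), the reverse of most falls. Its change with both hairpins was -1.06 ± 0.12 (SE, limma adjusted p = 9.09e-05), and against all 6 controls it was -0.25 (adjusted p = 0.361).

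MUC19, another gel-forming mucin, had 4.32 and 4.02 in the controls, 5.24 at the lowest, 6.12 at the median and 6.58 at the highest with miR1, and 5.50, 7.19 and 5.96 with miR2. All 10 knockdown tumours were above the 6 controls. The rise was 1.88 ± 0.36 (SE, limma adjusted p = 0.0131), or 3.68-fold (218% to 621% of control as a 95% interval). The adjusted p was 0.126 without control tumour 2 and 0.240 without control tumour 5. OTOGL, an otogelin-like secreted protein, had 2.69 and 2.79 in the controls, 2.85 to 3.20 with miR1, and 4.03, 5.79 and 5.07 with miR2. Its controls and miR1 tumours were dimmer than the lower quartile of every array. Detection calls were not used here, so whether the dim values lie above background is not known and the size of the difference is uncertain. The change was 2.22 with miR2 (limma adjusted p = 0.000177) and 0.21 with miR1 (adjusted p = 0.930).

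A part of the synaptic and neuronal genes rose. Of 21 measured, 5 rose with both hairpins (SYT1, UNC5C, GRIK2, NCAM2 and CNTN1), 7 with miR2 alone and 0 with miR1 alone by limma (3 at an unadjusted p below 0.05), and none fell in any of these. The medians were 0.13, 0.38 and 0.08. The mean level of the list was 4.36 to 4.58 in the controls, below the array medians of 5.21 to 5.41. With miR2 tumours 1 and 3 left out 6 rose with miR2, at a median of 0.13, while quantile normalization gave 7 and a median of 0.26. SYT1, the calcium sensor of synaptic vesicles, had 4.88 and 5.0 in the controls, 5.45 at the lowest, 5.87 at the median and 6.25 at the highest with miR1, and 7.19, 8.57 and 7.61 with miR2. The 3 groups did not overlap, and the left-out controls, at 5.58 to 5.76, lay within the miR1 range. The change was 1.90 ± 0.26 (SE, limma adjusted p = 0.000628) with both hairpins, 2.85 with miR2 (adjusted p = 1.06e-05) and 0.94 with miR1 (adjusted p = 0.332).

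UNC5C, a netrin receptor, had 3.91 and 4.15 in the controls, 4.40 to 5.19 with miR1, and 5.68, 6.04 and 5.72 with miR2. All 10 knockdown tumours were above the 6 controls, and the rise was 1.25 ± 0.19 (SE, limma adjusted p = 0.00180). Without control tumour 2 the adjusted p was 0.106. The glutamate receptor subunit GRIK2 changed by 1.75 with miR2 (limma adjusted p = 1.71e-05) and by 0.13 with miR1 (adjusted p = 0.937). The adhesion proteins NCAM2 and CNTN1 rose by 0.90 and 0.83 with both hairpins (limma adjusted p = 0.0198 and 0.0376). GRIK2 had a limma adjusted p of 0.0585 without control tumour 2 and 0.240 without control tumour 5, NCAM2 0.258 and 0.240, and CNTN1 0.348 and 0.301. CNTN1 and MUC19 are neighbours on chromosome 12, and 2 protein-coding genes lie between SYT1 and OTOGL on the same chromosome.

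GLYATL2, a glycine acyltransferase, was the only one of the 12 largest rises with a higher value for miR1 than for miR2. It had 3.81 and 4.19 in the controls, 5.13 at the lowest, 5.79 at the median and 6.26 at the highest with miR1, and 4.90, 4.95 and 4.19 with miR2. The lowest miR2 tumour and control tumour 5 were equal to 2 decimals. The change was 1.68 with miR1 (limma adjusted p = 0.00543) and 0.68 with miR2 (adjusted p = 0.208), and the hairpins differed by 1.0 (adjusted p = 0.00386). Its call with both hairpins (1.18, limma adjusted p = 0.0313) was lost without control tumour 2 (adjusted p = 0.618) and without control tumour 5 (adjusted p = 0.139).

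The other large rises were CEP126, a centrosome protein (1.37), EPHA3, an ephrin receptor (0.90), RETREG1, a receptor for the breakdown of endoplasmic reticulum (0.88), NOL4 (0.84) and EVL, an actin regulator (0.83), with limma adjusted p from 0.000739 to 0.00784. RETREG1 had 5.95 and 5.98 in the controls, 6.07 to 6.28 with miR1, and 7.41, 7.74 and 7.31 with miR2. The miR1 tumours lay just above the controls and well below miR2. Of the 12 largest rises miR1 alone called 1 (GLYATL2) and miR2 alone 11, and 11 differed between the hairpins. The controls left out were higher than control tumours 2 and 5 in 9 of these 12 and lower in 3, with a median difference of 0.17. NOL4 had 4.93 to 5.16 in them, above all miR1 tumours (4.58 to 4.89). EPHA3 had 5.78 to 6.20 in them, which overlaps the knockdown tumours (5.68 to 6.63). Against all 6 controls 11 of the 12 stayed called, and NOL4 did not (0.34, limma adjusted p = 0.0875). Leaving out control tumour 2 kept 3 of the 12 called (SYT1, CEP126 and RETREG1), with limma adjusted p up to 0.618. Leaving out control tumour 5 also kept 3 (SYT1, UNC5C and RETREG1), with adjusted p up to 0.301.

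Among genes of the urea cycle, solute carriers and metal transport, 5 of 18 fell with both hairpins (SLC6A14, SLC39A8, CPS1, SLC40A1 and TUSC3) and none rose. The median was -0.16. With miR1 alone 2 fell and with miR2 alone 9, or 4 with miR2 tumours 1 and 3 left out. SLC6A14, an amino acid transporter, had 7.67 and 7.78 in the controls, 7.82 at the lowest, 8.21 at the median and 8.40 at the highest with miR1, and 4.12, 3.49 and 4.11 with miR2. It lay above both controls in all 7 miR1 tumours and below them in all 3 of miR2. The change was 0.46 with miR1 (limma adjusted p = 0.654) and -3.82 with miR2 (adjusted p = 1.9e-09), so its call with both hairpins describes miR2.

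CPS1, the first enzyme of the urea cycle, changed alike with each hairpin. It had 4.81 and 4.90 in the controls, 3.77 at the lowest, 3.95 at the median and 4.35 at the highest with miR1, and 4.12, 3.85 and 4.18 with miR2. All knockdown tumours were below both controls, and the left-out controls were far higher, at 6.29 to 6.65. The change was -0.82 ± 0.15 (SE, limma adjusted p = 0.0111), with an adjusted p of 0.142 without control tumour 2 and 0.226 without control tumour 5. The hairpins differed by -0.05, with a 95% interval from -0.33 to 0.23. The zinc and manganese carrier SLC39A8 changed by -1.08 (limma adjusted p = 0.000739), -0.70 with miR1 (adjusted p = 0.0934) and -1.45 with miR2 (adjusted p = 4.23e-05). The iron exporter SLC40A1 changed by -1.13 with miR2 (limma adjusted p = 7.1e-05) and by -0.17 with miR1 (adjusted p = 0.879), and its call with both hairpins was lost without control tumour 2 (adjusted p = 0.219) and without control tumour 5 (adjusted p = 0.191).

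MYC was called with both hairpins, and its values differed between the hairpins. The transcription factor had 7.14 and 6.99 in the controls, 6.96 at the lowest, 7.26 at the median and 7.52 at the highest with miR1, and 4.73, 5.28 and 5.27 with miR2. The miR1 tumours spanned the controls, and the miR2 tumours lay below all others. The change was 0.17 with miR1 (limma adjusted p = 0.906) and -1.97 with miR2 (adjusted p = 1.7e-06), and the hairpins differed by 2.14 (adjusted p = 8.54e-09). The average, -0.90 ± 0.15 (SE, limma adjusted p = 0.00529), had an adjusted p of 0.186 without control tumour 2 and 0.0613 without control tumour 5. Of 27 targets of MYC in ribosome biogenesis and growth, limma called 0 with both hairpins (4 at an unadjusted p below 0.05) and 7 fell with miR2, with medians of -0.20 for both, 0.13 for miR1 and -0.54 for miR2. Of these 27, 26 were higher with miR1 than with miR2, where 16.7% of all genes were. Of 41 cell cycle genes limma called 0 with both hairpins (5 at an unadjusted p below 0.05). With miR2 11 of the 41 fell, where 2.98% of all genes did. The medians of the 41 were 0.22 with miR1 and -0.54 with miR2, and 37 were higher with miR1 than with miR2. Both counts depended on the 2 miR2 arrays with the narrow spread, and a fit without them also holds fewer tumours. With miR2 tumours 1 and 3 left out limma called 0 of the 27 MYC targets and 0 of the 41 cell cycle genes with miR2 (11 and 7 at an unadjusted p below 0.05), at medians of -0.37 and -0.22. The hairpin difference was then called in 1 of the 27 and 5 of the 41, while MYC stayed called with miR2 (-1.79, adjusted p = 0.000252). After quantile normalization 7 and 8 fell, at medians of -0.39 and -0.41.

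Oestrogen receptor response genes were split in the same way. Of 22 measured, GREB1 was the only call with both hairpins. With miR1 limma called 0 (5 at an unadjusted p below 0.05), where 0.136% of all genes were called. With miR2 10 of the 22 fell and 1 rose, where 2.98% of all genes fell and 1.39% rose. With miR2 tumours 1 and 3 left out 5 fell and 1 rose. GREB1, a cofactor of the oestrogen receptor, had 9.50 and 9.13 in the controls, 8.90 at the lowest, 9.18 at the median and 9.64 at the highest with miR1, and 5.93, 5.59 and 5.57 with miR2. The miR1 tumours overlapped the controls. The change was -3.62 with miR2 (limma adjusted p = 1.34e-08), which leaves 8.13% of the control signal, and -0.10 with miR1 (adjusted p = 0.949).

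**Figure D3:**
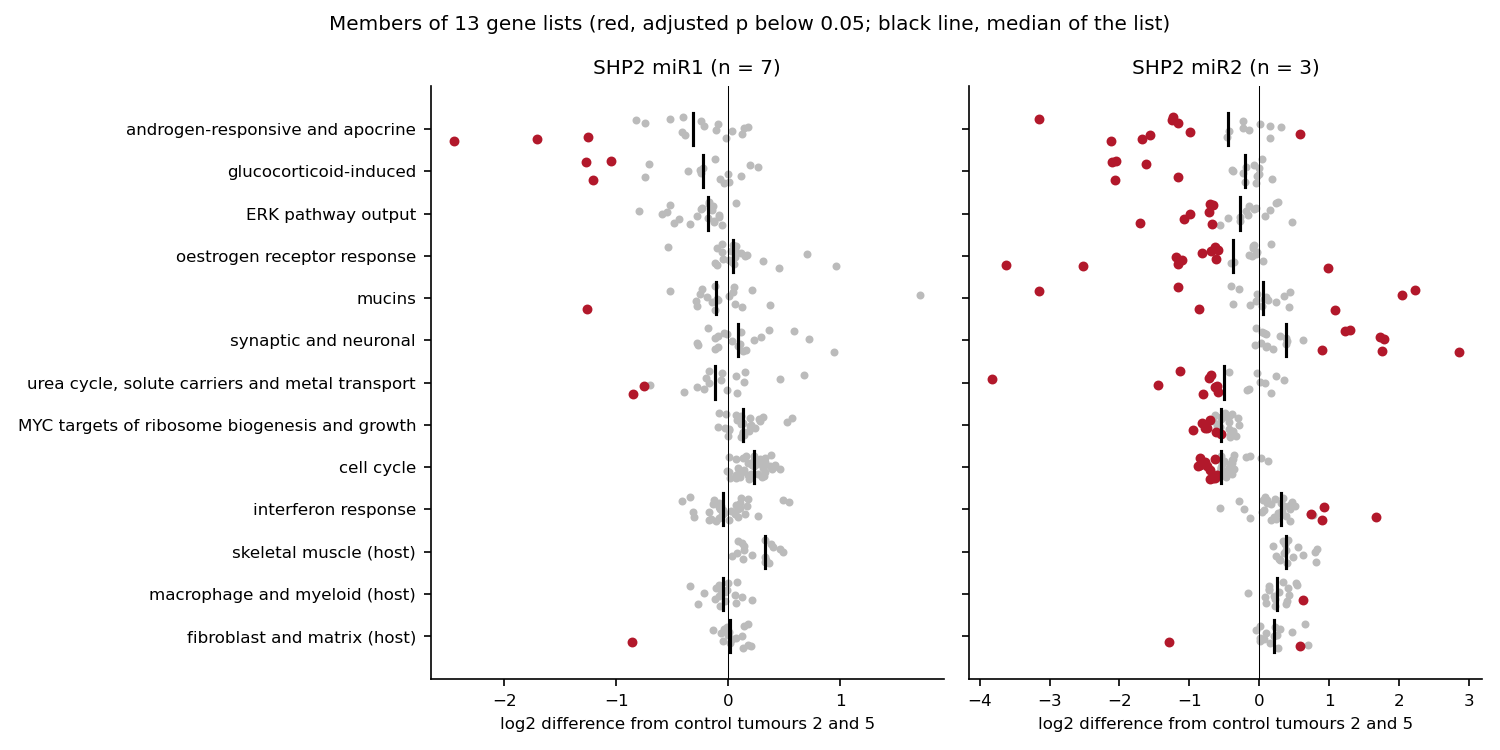
Members of 13 gene lists by their log2 difference from control tumours 2 and 5 with miR1 (left) and miR2 (right), 1 point per gene, with called genes in red and the list median as a black line. The cell cycle and MYC target lists have medians of 0.22 and 0.13 with miR1 and of -0.54 each with miR2. The 2 panels have different x scales.

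A stricter description uses all 6 controls for the ranges alone. Of the 138 called genes, 22 had all 10 knockdown tumours beyond all 6 controls, 11 below and 11 above. Of all genes 85 did (0.463%), 44 of them below (0.239%) and 41 above (0.223%). Those below were PTPN11, SLC39A8, COL5A2, PPP4R1L, CPS1, CADPS2, ETV4, CYBRD1, PRKAA2, MAP3K5 and TUSC3. Those above were NPAS3, TUBAL3, VEGFC, ZNF737, MIPEP, ERBB4, FAM83B, GLYATL2, OTOGL, UNC5C and MUC19. KLK2, KLK3, SGK1 and SCGB2A2 were not among them. Against the 4 left-out controls alone, 1687 of all genes lay below in all 10 knockdown tumours (9.18%) and 446 above (2.43%). Without control tumour 2, 3 of the 22 stayed called (PTPN11, SLC39A8 and COL5A2), and without control tumour 5, 8 did, these and PPP4R1L, CADPS2, ETV4, MAP3K5 and UNC5C.

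COL5A2, a fibrillar collagen chain, had 6.99 and 6.92 in the controls, 6.54 to 6.60 in the left-out controls, 5.96 at the lowest, 6.12 at the median and 6.33 at the highest with miR1, and 5.73, 5.76 and 5.53 with miR2. The change was -1.07 ± 0.12 (SE, limma adjusted p = 8.5e-05), and it stayed called without either control (adjusted p = 0.0108 and 0.00425). It was the only call with both hairpins and with miR1 alone among 17 fibroblast and matrix markers of the host, whose median with both was 0.11. PRKAA2, a catalytic subunit of AMP-activated kinase, had 7.31 and 7.33 in the controls, 6.14 to 6.75 with miR1 and 6.66, 6.85 and 6.36 with miR2, a change of -0.75 (limma adjusted p = 0.0268). TUSC3, a subunit for protein glycosylation, had 6.46 and 6.14 in the controls, 5.37 to 5.72 with miR1 and 5.80, 5.87 and 5.43 with miR2, a change of -0.68 (limma adjusted p = 0.0195). The lymphangiogenic factor VEGFC had 5.97 and 6.16 in the controls, 6.31 to 6.61 with miR1 and 6.83, 6.73 and 6.79 with miR2, a change of 0.54 (limma adjusted p = 0.0360). In PRKAA2, TUSC3 and VEGFC the calls were lost without control tumour 2 (adjusted p = 0.330, 0.648 and 0.703) and without control tumour 5 (adjusted p = 0.258, 0.0587 and 0.163).

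**Figure D4:**
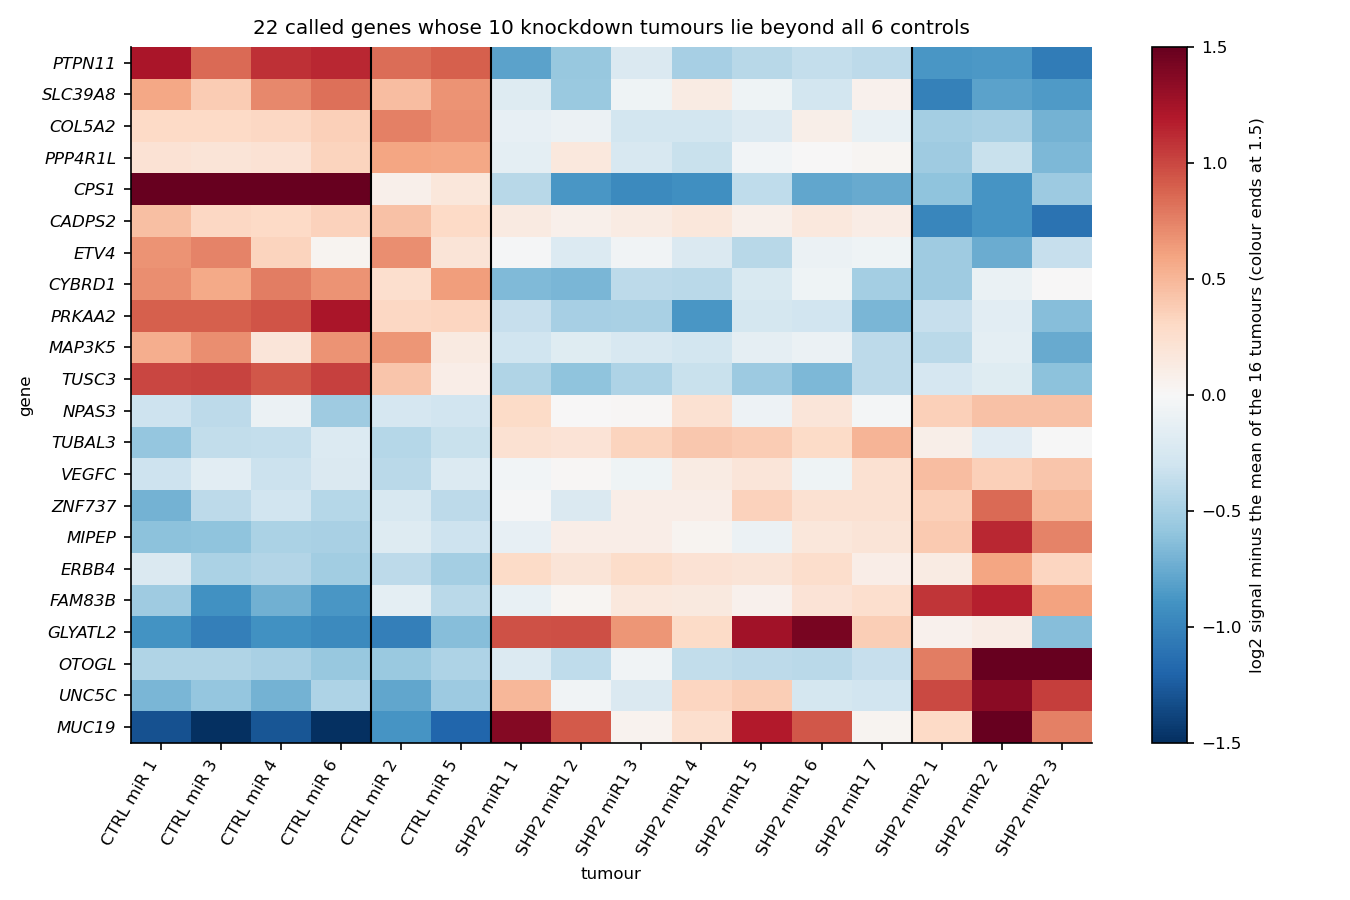
Log2 signal of 22 called genes (rows) in all 16 tumours (columns), as the difference from the gene's mean over the 16. Red is higher and blue is lower, and colours end at 1.5. The 10 knockdown tumours lie on 1 side of all 6 controls in every row, 11 below and 11 above. CPS1 is far higher in control tumours 1, 3, 4 and 6 than in control tumours 2 and 5.

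A dissected tumour holds host cells, and in bulk RNA fewer cells of a type and less RNA per cell cannot be told apart. The host is a mouse and the array is human, and BT474 cells can express listed genes themselves, so these lists do not separate host RNA from tumour RNA. With both hairpins limma called 0 of 18 macrophage, 14 endothelial, 12 adipocyte, 17 skeletal muscle, 13 lymphocyte and 10 blood cell markers. At an unadjusted p below 0.05 there was 1 each of the first 3 lists and 0 of the others. With miR2 alone 1 macrophage marker rose (6 at an unadjusted p below 0.05), at a list median of 0.26. No marker of the other 5 lists was called with miR2 alone. Of the 17 fibroblast and matrix markers 1 rose and 1, COL5A2, fell with miR2 alone. The hairpin difference was called with miR2 higher in 8 macrophage, 5 adipocyte, 5 lymphocyte, 4 fibroblast and matrix, 2 endothelial, 2 blood cell and 0 muscle markers. Of all genes 10.8% were called in that direction. The mean level of the muscle list was 4.76 to 4.97 in the controls, 4.63 to 5.67 with miR1 and 4.88 to 6.01 with miR2, with a median change of 0.37. The macrophage list was 4.27 to 4.46, 4.20 to 4.46 and 4.40 to 4.80. The part of host RNA in the results was not tested.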

How the data were processed

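Affymetrix HuGene-1_0-st-v1 arrays were hybridised with target made from 100 ng of total RNA, per the labels' protocols. The table that the authors deposited gives a log2 signal for each transcript cluster in each tumour. No source states the log2 scale, and it was read from the range of the deposited values, 1.54 to 13.63. R 2.10 and oligo 1.8 are named in the submitters' processing notes, and the sources used here do not give the background correction or the normalization. Genes were named from the platform annotation. Of 28869 clusters, 19310 had 1 symbol, 1752 had several and 7807 had none, and clusters with 1 symbol were used. For 685 genes with more than 1 cluster the one with the highest mean was kept, which left 18377 genes, with no filter on low values. Array medians of the 12 tumours were 5.21 to 5.41.

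The 12 arrays were fitted in limma 3.58.1 (R 4.3.3, lmFit and eBayes) with a mean for each of the 3 groups. Contrasts were both hairpins with equal weight, each hairpin, and miR1 minus miR2, and p-values were adjusted after Benjamini-Hochberg over 18377 genes. Intervals are at the 95% level and unadjusted. The fit was tested on simulated data. The members, the 36 gene lists and the tests were chosen with earlier results of these data known, so they are not independent support, and lists were given as counts and medians without a test.

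Named genes are PTPN11, ERBB4, KLK2, DUSP6, SPRY4, ETV4, ETV5 and MYC, the 12 largest rises and 12 largest falls among called genes with no overlap with both controls and the same sign with each hairpin, and up to 4 genes per described list, those with the lowest adjusted p. IRS4, HOXD10 and LIN28B describe the choice of controls. ZBTB16, ALOX15B and AZGP1, and the genes listed as called with each hairpin or as lying beyond all 6 controls, were chosen after their values were seen.

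Alternatives were quantile normalization, centring on array medians, a filter on genes with a low mean, all clusters, a robust prior with an intensity trend, a block for the array set or for the replicate number, array weights, each set alone, the spread of all 16 arrays, hairpins weighted by number of tumours, all 6 controls, and each tumour left out in turn. Leaving out miR2 tumours 1 and 3 together was added after the values were seen. Promoter sequences are from RefSeq (GRCh38.p14). Plots were drawn with matplotlib 3.10.9.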

Additional observations from a re-analysis of the deposited data

Results flagged for a closer look

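Of 60 genes examined, 47 differed between the hairpins when the difference itself was tested (limma adjusted p below 0.05). Of all genes 5056 did (27.5%). The 60 were mostly named because they were called, so the count is a description. Within set B alone the sign was the same for all 47, and 38 were still called. With the array set as a block 43 were called. The 9 that missed the threshold in set B were SPRY4, ETV4, NCAM2, EPHA3, MUC2, NPAS3, TUBAL3, VEGFC and ZNF737.

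A group of 28 had the higher signal with miR1. The difference, as miR1 minus miR2 on the log2 scale, was 0.46 in PTPN11, 1.22 in DUSP6, 0.64 in SPRY4, 0.39 in ETV4, 2.14 in MYC and 1.96 in SCGB2A2. It was 0.83 in RGS2, 1.42 in ABCC12, 0.85 in SGK1, 1.01 in EMP1, 1.65 in ABCC11 and 1.91 in GULP1. Further values were 0.76 in PNMT, 1.0 in GLYATL2, 1.18 in INPP4B, 2.64 in MUCL1, 3.52 in GREB1 and 0.91 in PDK4. The difference was also 0.91 in BCL6, 1.16 in TNFRSF10B, 2.19 in SLC7A5, 4.28 in SLC6A14, 0.75 in SLC39A8 and 0.96 in SLC40A1. The remaining values of this direction were 0.43 in COL5A2, 0.43 in PPP4R1L, 1.11 in CADPS2 and 0.37 in TUBAL3.

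A group of 19 had the higher signal with miR2. The same difference was -1.91 in SYT1, -1.47 in CEP126, -1.07 in UNC5C, -2.02 in OTOGL, -0.64 in NCAM2 and -0.42 in EPHA3. It was -1.29 in RETREG1, -0.79 in NOL4, -0.94 in CNTN1, -0.88 in EVL, -0.75 in TWIST1 and -1.58 in IFI6. Further values were -0.40 in MUC2, -1.63 in GRIK2, -0.33 in NPAS3, -0.36 in VEGFC, -0.45 in ZNF737 and -0.70 in MIPEP. The last value of this direction was -0.84 in FAM83B.

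In the miR1 group single tumours stood apart for 2 of the 60 genes examined, both times miR1 tumour 1. CNTN1 was 5.80 there, the highest of 7, and TWIST1 was 6.26, the lowest of 7. The gap to the nearest tumour was 0.631 and 0.576 of the whole range, above the 95% critical value of Dixon's test. Chance marks about 1 in 20 such groups, so 2 of 60 are no more than chance gives.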

How the results depend on the processing

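PTPN11 with both hairpins stayed lower and called in all 25 alternatives, at -1.70 to -1.47. Set A alone holds no miR2 tumour and is not among the 25. The miR1 change there was -1.36 and was not called, as given above. The count of 138 genes for both hairpins moved with array weights (83), with set B alone (27), with hairpins weighted by number of tumours (50) and with all 6 controls (3414). With 1 tumour left out it ran from 29 to 145. The miR1 count of 25 became 41 with the array set as a block, 4 in set A alone, 3 in set B alone, 43 with the spread of all 16 arrays and 874 with all 6 controls, and ran from 5 to 38 with 1 tumour left out. The miR2 count of 803 became 187 in set B alone and 5508 with all 6 controls, and ran from 194 to 1654. With miR2 tumours 1 and 3 left out, an alternative chosen after seeing the data, it was 324. The lone miR2 tumour is there assumed to vary like the other groups. Set alone fits rest on 1 control, assumed to vary like the other groups, and hold fewer tumours. Quantile normalization, centring, the filter on low genes, all clusters and the robust prior left the 3 counts within 1.5 times. For 64 single genes 1273 of 1593 alternative values kept their direction and their side of the threshold, 317 lost the call and 2 gained one. ALOX15B was the 1 reversal, at 0.013 with all 6 controls. For the other moves the cause was not tested.

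With the replicate number as a block the counts were 55, 11 and 475. The labels give only numbers, and deviations of tumours with the same number correlated at -0.42 to 0.532, so the numbers were not taken as a pairing.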

Other observations

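A few interferon response genes rose with miR2. Of 33 measured, 4 rose with miR2 alone, at a median of 0.31, where 1.39% of all genes rose. With miR1 limma called 0 of the 33 (5 at an unadjusted p below 0.05), at a median of -0.051. With miR2 tumours 1 and 3 left out 8 rose with miR2, at a median of 0.35, and after quantile normalization 3, at a median of 0.21. IFI6, an interferon-induced protein of mitochondria, had 6.83 and 6.65 in control tumours 2 and 5, 6.51 to 7.29 with miR1, and 8.36, 8.53 and 8.32 with miR2. Its miR1 tumours overlapped the controls, and it was the 1 gene of the list called with both hairpins (0.88, limma adjusted p = 0.0154).

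A part of the amino acid and unfolded protein response genes fell with miR2. Of 25 measured, 9 fell with miR2 alone, at a median of -0.45, where 2.98% of all genes fell. With miR1 limma called 0 of the 25 (1 at an unadjusted p below 0.05), at a median of 0.026. With miR2 tumours 1 and 3 left out 3 fell with miR2, at a median of -0.39. SLC7A5, a carrier of large neutral amino acids, had 9.07 and 8.61 in the controls, 8.83 to 9.26 with miR1, and 6.65, 7.01 and 6.93 with miR2. The change was -1.98 with miR2 (limma adjusted p = 1.44e-06) and 0.21 with miR1 (adjusted p = 0.881).

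TWIST1, a factor of epithelial-mesenchymal transition, rose with miR2 (0.97, limma adjusted p = 0.000128), while S100A4, a calcium-binding protein of the same list, fell with both hairpins (-0.60, adjusted p = 0.0359). S100A4 was not called with miR1 alone (limma adjusted p = 0.223). The controls left out had S100A4 at 5.52 to 5.95, which overlaps the knockdown tumours (5.60 to 6.10). Against all 6 controls its change was -0.12 (limma adjusted p = 0.531). TWIST1 and S100A4 were the only 2 of 18 genes of that list called with both hairpins. With control tumour 2 left out, the limma adjusted p for both hairpins was 0.117 for TWIST1, 0.618 for S100A4 and 0.128 for IFI6, and without control tumour 5 it was 0.259, 0.217 and 0.271.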
